A study of Mus musculus with 8 samples.

Results

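Interferon response and antigen presentation genes were examined in the cingulate cortex of mice that lack the major vault protein, the main component of the vault particle, which has been tied to interferon responses. The set holds 43 genes listed by symbol, of the 53379 genes in the count table, and all 43 were found and had enough counts to be tested among 16914 genes. They were listed by their known roles, at a time when earlier results of these data were known. They were grouped here as 11 receptor and signalling genes, 4 interferon regulatory factors, 4 sensors of foreign nucleic acid with their adaptors, 14 interferon-stimulated effectors, 7 genes of MHC class I presentation and 3 immunoproteasome subunits.

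Bulk RNA sequencing of polyadenylated RNA compared 4 untreated WT male mice with 4 untreated Mvp KO male mice on a C57BL/6N background. The Mvp KO mice were homozygous for a gene trap made in 1 embryonic stem cell clone, in which a β-geo cassette with a splice acceptor and a polyadenylation signal sits in the first intron of *Mvp*, so that sequence before it can still be transcribed. The age of the animals is not given in the sources used here. Levels are given as counts per 1000000 (CPM) scaled for library composition, fold changes and their 95% intervals come from edgeR on the log2 scale, and levels of different genes are compared only per kilobase of annotated exon.

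Cells secrete type I interferons when they sense foreign nucleic acid. Type I interferons bind the receptor chains *Ifnar1* and *Ifnar2*, interferon gamma binds *Ifngr1* and *Ifngr2*, and the kinases *Jak1*, *Jak2* and *Tyk2* then activate STAT proteins. STAT complexes bind the interferon-stimulated response element (ISRE) or the gamma-activated site (GAS) and switch on antiviral effectors, the immunoproteasome and the MHC class I pathway, which displays peptides on the cell surface. Neurons, glia and vascular cells of the brain carry these receptors, while MHC class I is usually low in the resting brain.

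Promoters are shown first because the ISRE marks many of the effectors. Whether the effectors varied together, or with the motif, was not tested. RefSeq promoters of GRCm38.p6, from 250 bases before to 50 bases after the start, were found for 36 of the 43 genes. The ISRE was searched as GAAANNGAAA and the GAS as TTCNNNGAA, on both strands. An ISRE match lay in the promoters of 14 of the 36 genes (38.9%) and in 3.99% of all 27025 genes with such a promoter. Such a match was found for 9 of 11 effectors, 2 of 3 sensors, 1 of 4 interferon regulatory factors and 1 of 5 MHC class I genes. Among the receptor and signalling genes 1 of 10 had one, and among the immunoproteasome genes none of 3. A GAS match was found in 10 of the 36 genes (27.8%) and in 9.55% of all genes with a promoter. In 5 promoters both motifs matched, and in 2 of these the matches shared a base. A match describes the letters in this window and is not a measured binding site.

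The following lines show the 150 bases before the start, on the strand of the gene, with ISRE matches in capitals. *Ifit1*, *Isg15* and *Bst2* stand for the effectors that varied most or carry paired elements, *B2m* for the MHC class I pathway, and *Jak1* for the receptor genes that have no match.
*Ifit1*, chr19:34640739-34640888, plus strand: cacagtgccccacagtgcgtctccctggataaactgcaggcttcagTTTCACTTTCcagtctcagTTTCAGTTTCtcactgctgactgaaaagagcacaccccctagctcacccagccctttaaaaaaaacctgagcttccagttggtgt
*Isg15*, chr4:156200819-156200968, minus strand: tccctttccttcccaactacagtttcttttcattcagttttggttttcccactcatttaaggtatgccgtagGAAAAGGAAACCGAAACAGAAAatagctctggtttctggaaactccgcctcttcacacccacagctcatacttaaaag
*Bst2*, chr8:71537473-71537622, minus strand: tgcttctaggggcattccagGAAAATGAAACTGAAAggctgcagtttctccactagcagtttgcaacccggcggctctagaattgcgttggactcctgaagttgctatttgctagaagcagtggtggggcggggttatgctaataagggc
*B2m*, chr2:122147537-122147686, plus strand: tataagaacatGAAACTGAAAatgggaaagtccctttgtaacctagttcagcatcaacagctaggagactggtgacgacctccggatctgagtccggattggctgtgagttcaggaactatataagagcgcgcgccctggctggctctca
*Jak1*, chr4:101265224-101265373, minus strand: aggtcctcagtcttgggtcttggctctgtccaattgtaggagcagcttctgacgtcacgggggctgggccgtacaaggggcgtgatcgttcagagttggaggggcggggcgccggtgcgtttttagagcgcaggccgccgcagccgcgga
*Isg15* held 3 matches that overlap in 1 run, *Bst2* held 2 that overlap, *Ifit1* held 2 that are apart, and *B2m* held 1.

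Total counts ranged from 28456504 to 42854368 per sample. Cortical neuron markers were abundant in every sample, with a summed level of 7921 to 10610 CPM over 8 genes of the labelled tissue. WT replicate 4 stood apart: it was 2-fold or more away from the median of the remaining samples for 1560 of the 16914 genes, while each remaining sample was so for 91 to 440 genes. It had the highest sum of the neuron markers, and was the highest sample for 6 of the 8 and the lowest for 2. One of them, Gad2, which makes the transmitter GABA, was at 545 CPM in this sample against 154 to 205 CPM elsewhere. WT replicate 4 also had the lowest sums of the markers of oligodendrocytes (1311 CPM) and of border macrophages and monocytes (3.65 CPM). Several log2 fold changes that rest on this sample are therefore given with and without it. SDs and other spreads within a genotype include it. The part of these cell types in all these values was not tested. *Mvp* (ENSMUSG00000030681) was at 6.81, 7.12, 7.89 and 5.49 CPM in WT and at 1.45, 1.44, 2.13 and 1.51 CPM in Mvp KO, so the genotypes did not overlap. The log2 fold change was -2.06 (SE 0.186, adjusted p = 0.0162, edgeR quasi-likelihood test), and an exact two-sided permutation test of its level gave p = 0.0286, the smallest that 70 arrangements allow. *Mvp* was the 1 gene called of all tested, and the adjusted p rose to between 0.0918 and 0.147 when any of 6 samples (WT replicates 1, 2 and 3 and Mvp KO replicates 1, 2 and 4) was left out, at log2 fold changes of -1.99 to -2.06.

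None of the 43 genes was called between genotypes, where 0.00591% of all tested genes were called at an adjusted p under 0.05. No member reached an unadjusted p under 0.05 in edgeR or in DESeq2, against 1.56% of all genes in edgeR, and no member had genotypes that did not overlap, against 1.52%. Of the 43 log2 fold changes 23 were positive and 20 negative, with a median of 0.025, and the extremes were -0.46 for *Irf7* and 0.35 for *Isg15*. The 8 smallest p ran from 0.120 (*Tyk2*) to 0.242 (*Tap1*), and the adjusted p of the members ran from 0.969 to 0.997 (edgeR). The data bound the size of a change more tightly for some genes than for others. The 95% interval lay within 1.5-fold in either direction for 24 of the 43 genes (55.8%, against 64.5% of all genes) and within 2-fold for 38 (88.4%, against 86.7%). The 5 genes with wider intervals were *Irf7*, *Isg15*, *Ifit1*, *Oas1a* and *Nlrc5*.

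**Figure D1:**
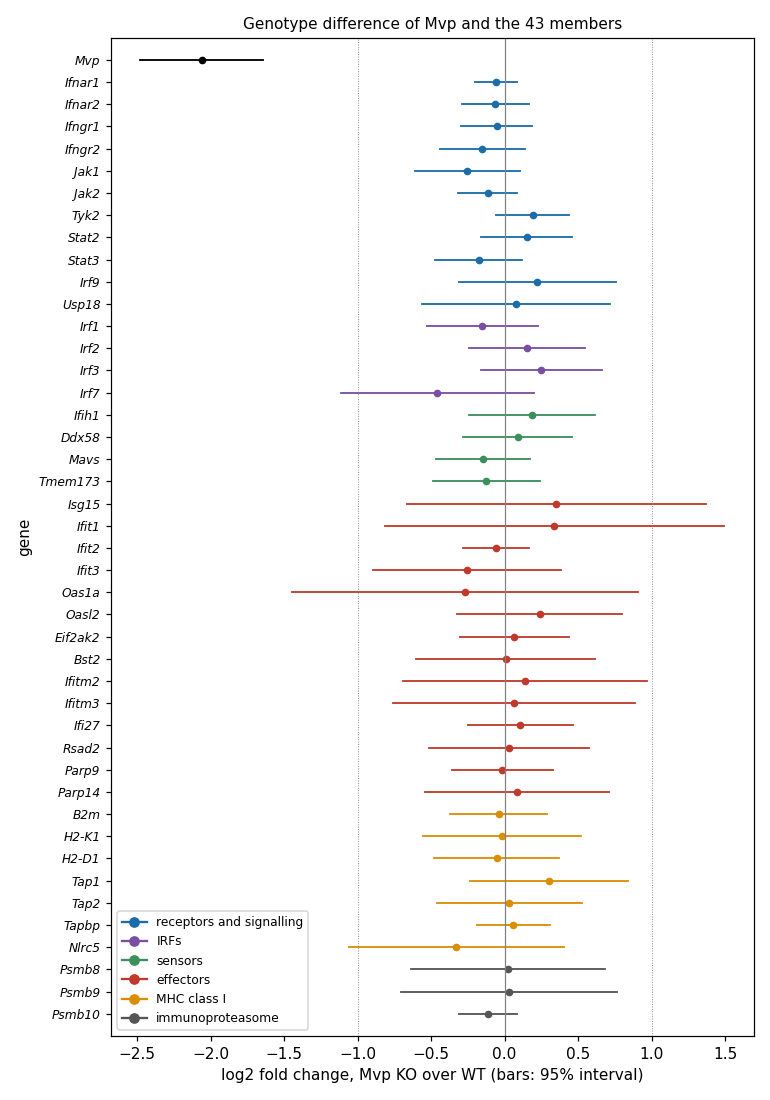
Log2 fold change of Mvp KO over WT for Mvp and the 43 genes, coloured by role, with 95% intervals from the edgeR fit; dotted lines mark 2-fold. Mvp lies at -2.06, and every interval of the 43 genes includes 0, those of Isg15, Ifit1 and Oas1a being among the widest.

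The receptors and their kinases had the smallest median within-genotype SD of log2 CPM of the role groups (0.20), next to the sensors (0.21). Per kilobase, *Jak1*, the kinase that serves both receptor types, was the second highest of all 43 genes in WT at 35.3 CPM, and *Jak2*, the partner kinase of the interferon gamma receptor, was at 14.4 CPM. *Ifnar1*, the signalling chain of the type I receptor, ranged from 42.6 to 48.2 CPM over all 8 samples, and the 95% interval of its fold change ran from 0.871 to 1.06. *Ifngr2*, the signalling chain of the interferon gamma receptor, was at 39.9, 39.4, 39.1 and 55.5 CPM in WT and at 37.5, 34.3, 41.2 and 43.5 CPM in Mvp KO. The high WT value was that of replicate 4, and the same sample was highest for *Jak1* and *Stat3*. Of the 11 genes, 4 had positive and 7 negative log2 fold changes, and 2 were highest in Mvp KO replicate 1.

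*Jak1* was at 222, 211, 234 and 354 CPM in WT and at 189, 213, 233 and 221 CPM in Mvp KO. WT replicate 4 lay above all other samples, and the rest overlapped. The log2 fold change was -0.25 (SE 0.159, 95% interval -0.61 to 0.10), -0.053 without WT replicate 4 and -0.34 without WT replicate 2. *Stat3*, the STAT protein that also carries cytokine signals in glia, was at 55.5, 52.9, 54.2 and 79.5 CPM in WT and at 54.0, 48.2, 54.6 and 57.5 CPM in Mvp KO. Its log2 fold change was -0.18 (SE 0.132, 95% interval -0.47 to 0.12), -0.015 without the same sample and -0.24 without WT replicate 2. *Jak2* was at 75.0, 67.4, 69.7 and 78.2 CPM in WT and at 66.8, 57.1, 71.0 and 73.2 CPM in Mvp KO. Its log2 fold change was -0.11 (SE 0.090, 95% interval -0.32 to 0.087). This was -0.049 without Mvp KO replicate 2 and -0.16 without Mvp KO replicate 4.

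*Tyk2*, the kinase bound to the type I receptor, had the smallest p of the set. It was at 24.2, 21.1, 21.5 and 17.9 CPM in WT and at 24.4, 21.4, 23.4 and 27.4 CPM in Mvp KO, and the genotypes overlapped. The log2 fold change was 0.19 (SE 0.111, 95% interval -0.06 to 0.44), with a 95% interval of the fold from 0.959 to 1.36. Without WT replicate 1 it rose to 0.26 at an unadjusted p of 0.0452, and the genotypes no longer overlapped, but the adjusted p was 0.872. It was 0.12 without WT replicate 4, the lowest sample, and also 0.12 without Mvp KO replicate 4, the highest. *Irf9*, the DNA-binding subunit of the type I STAT complex, was at 17.4, 17.7, 15.8 and 8.10 CPM in WT and at 21.0, 13.8, 15.8 and 18.3 CPM in Mvp KO. WT replicate 4 held the lowest value of *Irf9*, and also that of *Stat2*, which joins *Irf9* in this complex, at 20.9 CPM against 28.5 to 34.6 CPM elsewhere. *Usp18*, a brake on the type I receptor that interferon itself induces, was low, at 0.667 to 1.497 CPM, and highest in Mvp KO replicate 1.

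The interferon regulatory factors had 2 positive and 2 negative log2 fold changes. Per kilobase, *Irf3*, the factor that starts interferon transcription once a sensor has fired, was at 5.02 CPM in WT, and *Irf2*, which dampens interferon responses, was at 3.38 CPM. *Irf3* was at 18.8, 21.0, 18.6 and 10.7 CPM in WT and at 21.4, 20.03, 18.5 and 22.3 CPM in Mvp KO. Its log2 fold change was 0.25 (SE 0.183, 95% interval -0.16 to 0.66), 0.082 without WT replicate 4 and 0.36 without WT replicate 2. *Irf2* showed the same low value in that sample, at 16.3 CPM with 24.5 to 31.7 CPM elsewhere. *Irf7*, which amplifies the type I response, was at 2.15, 1.91, 2.02 and 3.52 CPM in WT and at 2.27, 2.00, 1.68 and 0.983 CPM in Mvp KO. Its log2 fold change, -0.46 (SE 0.293, 95% interval -1.11 to 0.20), was the most negative of the set. It rested in part on a high value in WT replicate 4 and a low one in Mvp KO replicate 4. It was -0.21 without the former and -0.28 without the latter. Over all samples left out in turn it stayed negative, down to -0.62 without Mvp KO replicate 1. *Irf1*, the factor that drives much of the interferon gamma programme, ranged from 7.30 to 12.2 CPM and was also highest in WT replicate 4.

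The sensors varied between animals about as much as other genes, with a median ratio of the highest to the lowest sample of 1.55, against 1.53 over all genes. *Mavs*, the mitochondrial adaptor of the RNA sensors, was the highest per kilobase in WT at 2.25 CPM, and *Tmem173*, the adaptor STING of the DNA-sensing pathway, was at 1.48 CPM. *Mavs* was at 8.70, 7.67, 8.04 and 5.65 CPM in WT and at 6.66, 6.91, 6.52 and 7.09 CPM in Mvp KO. The log2 fold change was -0.15 (SE 0.143, 95% interval -0.47 to 0.17), and the genotypes overlapped. Without WT replicate 4 it was -0.26 at an unadjusted p of 0.0287 and the genotypes did not overlap, while the adjusted p was 0.99994. *Tmem173* ranged from 3.24 to 5.04 CPM in WT and from 3.34 to 3.93 CPM in Mvp KO. The RNA sensors *Ifih1* (MDA5) and *Ddx58* (RIG-I) ranged from 4.74 to 8.24 CPM and from 4.29 to 6.44 CPM, and in both genes Mvp KO replicates 1 and 2 lay above Mvp KO replicates 3 and 4.

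The effectors had larger spreads between animals than the receptors. The median within-genotype SD of log2 CPM was 0.43 over the 14 effectors and 0.20 over the 11 receptor and signalling genes, against 0.20 over all genes tested. Such SDs also depend on the count level, which differed between these groups. No background matched for level was compared, so the part of level in this contrast was not tested. The median over the 43 genes was 0.31, and 33 of them lay above the median of all genes. The 5 largest SDs of the set were all those of effectors, namely *Ifit1* (0.81), *Oas1a* (0.80), *Isg15* (0.79), *Ifitm3* (0.62) and *Ifitm2* (0.60). Their counts lay between 3 and 328 per sample.

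*Ifit1* (ENSMUSG00000034459, chr19:34640871-34650009, GRCm38), which binds viral RNA that lacks a host-type cap, was at 2.45, 2.39, 1.61 and 1.75 CPM in WT and at 6.01, 1.94, 0.999 and 1.37 CPM in Mvp KO. One animal, Mvp KO replicate 1, lay well above the other 7, and Mvp KO replicate 3 was the lowest. Means with SD over 4 samples were 2.05 ± 0.432 CPM for WT and 2.58 ± 2.32 CPM for Mvp KO. The log2 fold change was 0.34 (SE 0.513, 95% interval -0.82 to 1.49) and turned to -0.51 without Mvp KO replicate 1. *Ifit3*, a partner of *Ifit1*, followed the same order within Mvp KO but not within WT, at 4.63, 4.47, 3.83 and 4.79 CPM in WT and at 6.19, 3.52, 2.24 and 2.84 CPM in Mvp KO. The fitted log2 fold change was -0.26 (SE 0.285, 95% interval -0.90 to 0.38), and the genotypes overlapped. Without Mvp KO replicate 1 it was -0.63 at an unadjusted p of 0.0110 with no overlap between genotypes, and the adjusted p was 0.997. *Ifit2*, a gene of the same cluster on chromosome 19, did not share this spread. It ranged from 14.1 to 18.2 CPM over all samples. Its 2 annotated promoters held no ISRE match in the windows searched, and 1 of them held a GAS match. Any part of the motifs in this spread was not tested.

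*Isg15*, a ubiquitin-like protein that is joined to other proteins during the interferon response, was at 1.21, 1.75, 1.04 and 0.349 CPM in WT and at 2.00, 1.69, 0.710 and 1.19 CPM in Mvp KO. WT replicate 4 was the lowest with 11 counts, and the genotypes overlapped. The log2 fold change was 0.35 (SE 0.452, 95% interval -0.67 to 1.37). It was 0.068 without WT replicate 4 and 0.69 without WT replicate 2. *Ifitm3*, a membrane protein that blocks viral entry, was at 5.25, 6.06, 4.61 and 2.48 CPM in WT and at 8.18, 4.80, 2.84 and 3.37 CPM in Mvp KO. Its log2 fold change of 0.062 (SE 0.365, 95% interval -0.76 to 0.88) became -0.14 when WT replicate 4 was left out and -0.32 when Mvp KO replicate 1 was. Per kilobase it was the second highest effector in WT, at 6.78 CPM, behind *Ifi27*, a small mitochondrial protein induced by type I interferon, at 13.4 CPM.

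*Ifitm2*, the neighbouring family member, was at 1.98, 2.19, 1.79 and 0.826 CPM in WT and at 3.12, 1.36, 1.21 and 1.79 CPM in Mvp KO. Of its exonic bases, 40.9% are shared with an overlapping gene model on the same strand, so its count is uncertain. Its log2 fold change was 0.14 (SE 0.370, 95% interval -0.69 to 0.97), and it turned to -0.080 once WT replicate 4 was left out and to -0.23 once Mvp KO replicate 1 was. *Oas1a*, a synthetase that activates RNase L, was the least abundant effector per kilobase, at 0.222 CPM in WT. Before scaling by length it was at 0.324, 0.461, 0.634 and 0.254 CPM in WT and at 0.649, 0.277, 0.0789 and 0.386 CPM in Mvp KO. It had 3 to 26 counts per sample, and its log2 fold change was -0.27 (SE 0.523, 95% interval -1.44 to 0.91), which turned to 0.069 without Mvp KO replicate 3 and was -0.80 without Mvp KO replicate 1. Further effectors whose highest sample was Mvp KO replicate 1 were *Parp14*, an interferon-induced ADP-ribosyltransferase, at 6.91 CPM in Mvp KO replicate 1 against 3.02 to 5.02 CPM elsewhere, and *Bst2* (tetherin), which holds budding virus at the cell surface, at 3.97 against 1.58 to 3.29 CPM. *Oasl2*, a relative of the oligoadenylate synthetases, was also highest there, at 4.24 against 1.78 to 3.77 CPM, and its promoter held no ISRE match.

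Among MHC class I genes, the structural chains were the most abundant. *B2m*, the invariant light chain, was the highest of the 43 genes per kilobase at 77.5 CPM in WT, and *H2-D1*, a heavy chain, was at 10.6 CPM. *B2m* was at 65.7, 77.9, 62.8 and 60.3 CPM in WT and at 79.9, 72.7, 52.5 and 54.2 CPM in Mvp KO. *H2-K1*, the other classical heavy chain, was at 21.3, 24.9, 18.4 and 20.1 CPM in WT and at 31.3, 22.9, 14.2 and 15.2 CPM in Mvp KO. *H2-D1* was at 23.6, 30.5, 24.3 and 31.1 CPM in WT and at 35.6, 28.8, 19.8 and 21.2 CPM in Mvp KO. In all 3 genes Mvp KO replicates 1 and 2 lay above Mvp KO replicates 3 and 4, and the WT samples lay between the extremes of Mvp KO. The genotype means were close, with 95% intervals of the fold change from 0.774 to 1.22 for *B2m*, from 0.682 to 1.43 for *H2-K1* and from 0.717 to 1.29 for *H2-D1*. Reads of class I heavy chains can be shared with related genes of the locus, so these counts are uncertain to that extent.

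*Tap1*, a subunit of the transporter that brings peptides into the endoplasmic reticulum, was at 2.27, 2.74, 1.93 and 1.81 CPM in WT and at 3.27, 3.44, 1.89 and 2.18 CPM in Mvp KO. Its log2 fold change was 0.30 (SE 0.239, 95% interval -0.24 to 0.84), and the genotypes overlapped. It was 0.16 without Mvp KO replicate 2, 0.19 without Mvp KO replicate 1 and at most 0.44 (without Mvp KO replicate 3). *Tap2*, the other subunit, ranged from 5.21 to 10.4 CPM, and *Tapbp* (tapasin), which bridges the transporter to class I molecules, from 20.4 to 28.3 CPM. Opposite-strand genes cover 24.9% of the exonic bases of *Tapbp*, 18.5% of those of *Tap2* and 14.7% of those of the immunoproteasome gene *Psmb8*, and the strand setting of the counting is not given in the sources used here, so these counts are uncertain. *Nlrc5*, the transactivator of class I genes, was at 1.18, 1.06, 0.922 and 1.05 CPM in WT and at 1.22, 0.999, 0.736 and 0.351 CPM in Mvp KO, which left a wide 95% interval of its fold change, from 0.479 to 1.32.

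The immunoproteasome subunits replace the standard catalytic subunits of the proteasome and favour peptides that fit MHC class I. *Psmb10* was the steady one, with the highest level per kilobase in WT at 19.0 CPM, followed by *Psmb8* at 0.700 CPM, with the doubt on its count given above. *Psmb10* was at 27.9, 34.3, 32.4 and 35.2 CPM in WT and at 32.4, 30.2, 28.9 and 28.4 CPM in Mvp KO, with a log2 fold change of -0.11 (SE 0.088, 95% interval -0.31 to 0.084). Without WT replicate 1 this was -0.18 at an unadjusted p of 0.0484 and an adjusted p of 0.872, and without WT replicate 4 it was -0.071. *Psmb9* was at 1.42, 1.38, 0.778 and 1.08 CPM in WT and at 1.82, 1.25, 0.658 and 1.02 CPM in Mvp KO. *Psmb8* ranged from 1.42 to 3.62 CPM, and Mvp KO replicate 1 was highest and Mvp KO replicate 3 lowest for both *Psmb8* and *Psmb9*.

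**Figure D2:**
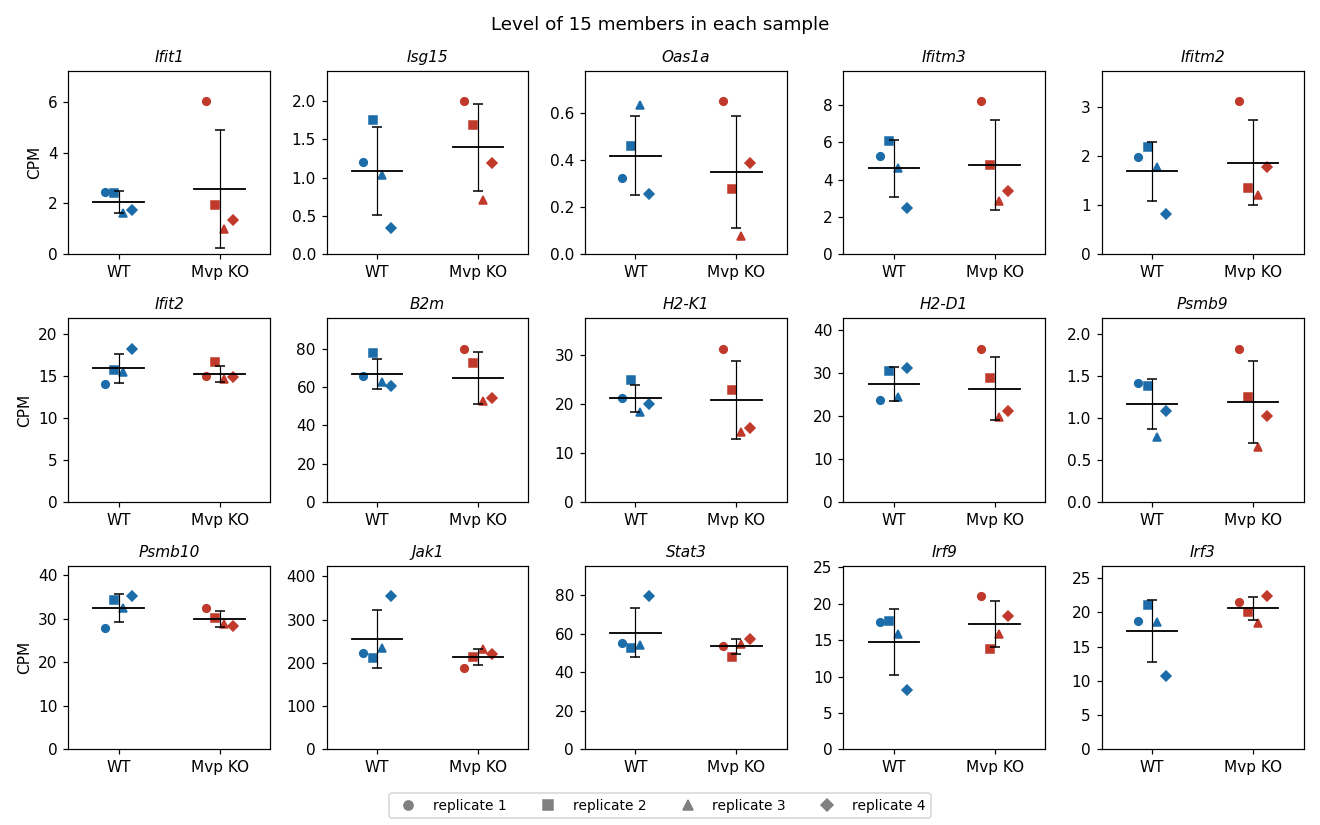
CPM of 15 genes in each sample, WT in blue and Mvp KO in red; symbols mark the replicate number, horizontal lines the mean and bars the SD (n = 4). Mvp KO replicate 1 (red circle) is highest for Ifit1 at 6.01 CPM, and WT replicate 4 (blue diamond) stands apart for Jak1 at 354 CPM and Irf9 at 8.10 CPM.

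Single animals stood out in some of the role groups. Mvp KO replicate 1 had the highest level of 21 of the 43 genes (48.8%), while it was highest for 15.5% of all genes tested. Of the effectors 11 of 14 were highest there, of the MHC class I genes 5 of 7 and of the immunoproteasome subunits 2 of 3, while it was highest for 2 of the 11 receptor and signalling genes (18.2%), 1 of the 4 sensors and none of the 4 interferon regulatory factors. Mvp KO replicate 3 had the lowest level of 13 genes (30.2%, against 7.53% of all genes). Without WT replicate 4 these counts were 23 highest (53.5%, against 19.4%) and 23 lowest (53.5%, against 12.9%). These 2 animals were singled out after their values were seen, and the counts are a description of the samples.

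**Figure D3:**
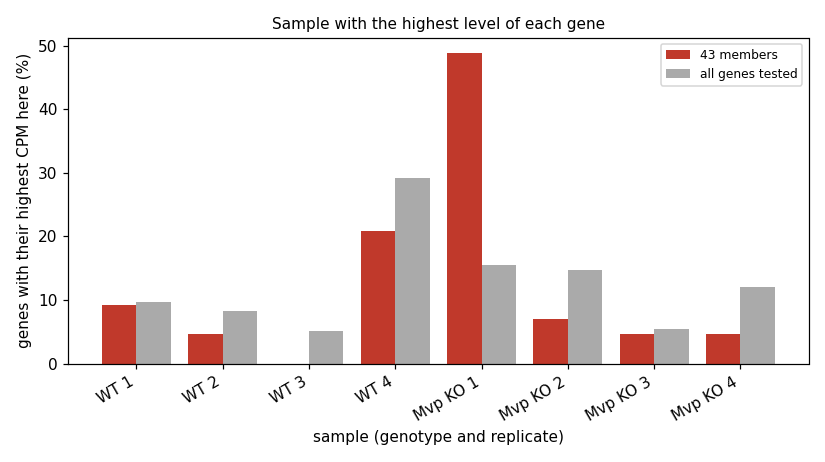
Share of genes with their highest CPM in each sample, for the 43 genes (red) and for all 16914 genes tested (grey). Mvp KO replicate 1 holds 48.8% of the 43 genes and 15.5% of all genes, and WT replicate 4 holds 20.9% and 29.2%.

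All 14 effectors, all 7 MHC class I genes and all 3 immunoproteasome subunits were higher in Mvp KO replicate 1 than in Mvp KO replicate 3, with median ratios of 2.40, 1.66 and 2.55. The receptor and signalling genes were split, with 6 of 11 higher and a median ratio of 1.003, close to the 51.4% and 1.01 of all genes. The spread within Mvp KO exceeded that within WT for 10 of 14 effectors and 6 of 7 MHC class I genes but for 2 of 11 receptor and signalling genes, against 38.6% of all genes. WT replicate 4 was the lowest sample for 16 of the 43 genes and the highest for 9, shares (37.2% and 20.9%) that lie near and below those of all genes (32.5% and 29.2%).

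**Figure D4:**
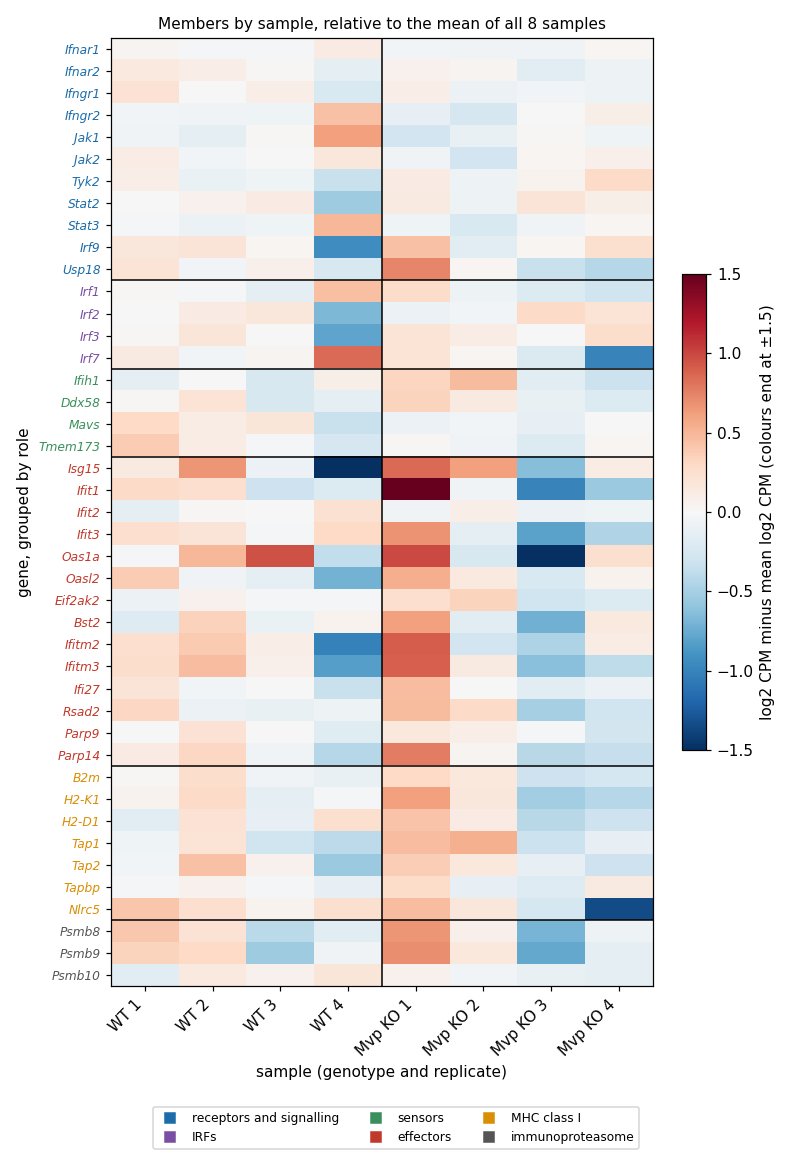
Log2 CPM of each of the 43 genes in each sample, relative to the mean over the 8 samples, with genes grouped by role and samples by genotype; red is higher and blue lower, and colours end at ±1.5. The column of Mvp KO replicate 1 is red over most effectors, the MHC class I genes, Psmb8 and Psmb9. That of Mvp KO replicate 3 is blue over most of these genes. WT replicate 4 differs in the receptor genes and regulatory factors and is the lowest sample for 6 of the 14 effectors.

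Other cell types differed between these libraries too. In bulk tissue, fewer cells of a type and less RNA per cell cannot be told apart. Mvp KO replicate 1 had the highest sum of the 7 oligodendrocyte markers, 5608 CPM with 1311 to 3832 CPM elsewhere, and of the 10 markers of mural cells and leptomeningeal fibroblasts, 384 against 195 to 303 CPM. It had the lowest sum of the 8 cortical neuron markers, 7921 against 8468 to 10610 CPM, and of the 7 astrocyte markers, 4212 against 4544 to 5134 CPM. All 7 oligodendrocyte markers and 8 of the 9 tested mural and leptomeningeal markers were highest in that sample. The sum of the 9 markers of border macrophages and monocytes was 12.8 CPM there and 3.65 to 12.03 CPM elsewhere. The 12 microglial markers did not follow, at 467 CPM against 447 to 516 CPM, nor did the 10 endothelial markers, at 394 against 367 to 460 CPM. Lymphocyte markers were near 0 in every sample, with a sum of 0.875 to 1.75 CPM over 10 genes, of which *Cd4* held most, and 13 counts of *Cd3e* in all. The part of these cell types in the levels of the interferon genes was not tested.

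Between genotypes, the sum of the endothelial markers averaged 432 ± 24.3 CPM over the 4 WT samples and 383 ± 13.01 CPM over the 4 Mvp KO samples (mean ± SD), without overlap. The exact permutation test gave p = 0.0286 and, adjusted over the 11 summed lists compared, 0.314. The sum of the microglial markers was 498 ± 24.2 CPM in WT and 458 ± 10.7 CPM in Mvp KO, with an exact permutation p of 0.0857 and an adjusted p of 0.419. The other sums had larger p.

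The wider pathway gave the same result between genotypes. Of 61 other interferon pathway genes 51 were tested, and of 31 other antigen presentation genes 30 were tested. In both lists edgeR called 0 genes and 0 were at an unadjusted p under 0.05, with medians of the log2 fold change of 0.031 and -0.014. By values, 1 gene of the first list (of 51 tested, a share near the 1.52% of all genes) had genotypes that did not overlap, namely the DNA sensor *Mb21d1* (cGAS), at 1.40 to 1.83 CPM in WT and 1.87 to 2.14 CPM in Mvp KO (unadjusted p = 0.158, edgeR). Of the interferons, 2 were looked up, with no count of *Ifnb1* and 1 count of *Ifng* over all samples. These were too few counts to be tested, and very low levels cannot be told from absence at this depth.

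The same animal stood out in these lists. Mvp KO replicate 1 was highest for 20 of the 51 other interferon genes (39.2%) and 11 of the 30 other antigen presentation genes (36.7%), against 15.5% of all genes. The examples that follow were chosen after their values were seen. *Cxcl10*, a chemokine that interferon gamma induces, was at 1.32 CPM there and at 0 to 0.206 CPM in the others, too few counts to be tested. The MHC class II chain *H2-Aa* was at 9.08 CPM there and at 0.860 to 3.18 CPM elsewhere, and *Cd74*, the class II invariant chain, at 8.43 against 1.16 to 3.89 CPM.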

How the data were processed

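Libraries were stranded, used 200 ng of total RNA each and were read as single ends. Per the labels and the methods, the authors trimmed reads with cutadapt 1.10, used Bowtie2 2.2.8 and STAR 2.5.3a on mm10 and counted reads per gene with HTSeq 0.6.1p1 and an Ensembl annotation. The deposited values are raw counts per gene. The strand setting and overlap mode of the counting are not given in the sources used here, and samples of low RNA integrity were not used by the authors. All sample columns were used, and every entry named a gene.

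Symbols, exon lengths and coordinates came from the GENCODE annotation of GRCm38, another release than the authors used, which held 53274 of the 53379 identifiers. Promoters came from RefSeq. The 43 genes and the lists were chosen with earlier results of these data known. The test used edgeR 4.0.16 under R 4.3.3 with filterByExpr (minimum count 10, minimum total 15), TMM scaling, robust quasi-likelihood test of genotype, Benjamini-Hochberg adjustment over 16914 genes and a threshold of 0.05. CPM use TMM-scaled totals. Log2 CPM for SDs use a prior count of 2. Samples of a genotype are taken to be separate animals, which the labels do not state, and p-values measure only the spread between these samples. Genes named were *Mvp*, the 8 of smallest p, the 5 of largest SD and the 2 of highest level per kilobase in each role. All other genes named were chosen after their values were seen. The fits were tested on simulated counts. Alternatives were DESeq2's size factors, the Wald test of DESeq2 1.42.0, no filter, a replicate block and leaving out each sample. Python 3.11.15, pandas 2.3.3 and matplotlib 3.10.9 made tables and figures.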

Additional observations from a re-analysis of the deposited data

Results flagged for a closer look

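In each genotype of 4 samples, the sample farthest from the rest was compared with Dixon's 95% critical value by its gap over the range of the group. Of 124 such groups (each gene of the set, *Mvp*, the summed lists and the total counts, by genotype) 10 passed, or 8.06%, where chance gives about 5%. WT replicate 4 was the far sample for *Ifngr2* (0.949), *Stat3* (0.903), *Irf7* (0.850) and *Jak1* (0.837), high in each, and for the summed receptor and signalling genes (0.832), in which *Jak1* weighs most. WT replicate 2 was high for the summed MHC class I genes (0.851) and for total counts (0.857), and WT replicate 1 was high for *Rsad2* (0.940), an antiviral enzyme also called viperin. In Mvp KO, replicate 4 was high for *Ifnar1* (0.846), at 45.2 CPM, and replicate 3 for *Mvp* itself (0.903), at 2.13 CPM. Mvp KO replicate 1 passed for none of the 43 genes.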

How the results depend on the processing

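No alternative called any of the 43 genes, and the 13 genes followed one by one (the 8 of smallest p and the 5 of largest SD) had adjusted p of at least 0.846 in all 156 alternative values. In 6 of these values the log2 fold change took the other sign: *Ifit1* (-0.51), *Ifitm3* (-0.32) and *Ifitm2* (-0.23) without Mvp KO replicate 1, *Ifitm3* (-0.14) and *Ifitm2* (-0.080) without WT replicate 4, and *Oas1a* (0.069) without Mvp KO replicate 3. Over all samples left out in turn, *Ifit1* ran from -0.51 to 0.60, *Ifitm3* from -0.32 to 0.25, *Ifitm2* from -0.23 to 0.30 and *Oas1a* from -0.80 to 0.069. Leaving out 1 sample gave log2 fold changes of *Mvp* from -2.22 to -1.99, from 0 to 2 genes of the set at an unadjusted p under 0.05 and from 0 to 1 without overlap. The median log2 fold change of the set ran from -0.13 (without Mvp KO replicate 1) to 0.11 (without Mvp KO replicate 3). Under the replicate block *Mvp* had a log2 fold change of -2.07 at an adjusted p of 0.0850, and no gene was called. Same-numbered samples are not known to be paired: the correlations of their deviations were 0.055, 0.29, -0.0067 and 0.051. Scaling by DESeq2's size factors, its Wald test and no filter kept *Mvp* called, and the Wald test called 2 genes in all. Low counts limit *Ifnb1* and *Ifng*, which were not tested, and *Oas1a*, with 3 counts in its lowest sample. Only 5 of the 14 effectors had a 95% interval inside 1.5-fold.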
